A study of Homo sapiens with 10 samples.

Results

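Rb occupancy was examined at the promoters of 10 genes that decide whether a cell enters the mitochondrial route to apoptosis: BCL2, BCL2L1 (BCL-xL), MCL1, BAX, BAK1, BBC3 (PUMA), PMAIP1 (NOXA), BCL2L11 (BIM), BID and APAF1. The genes were listed by name and function, with earlier results of these data known, and a gene counted as occupied in a library when a peak overlapped the stretch from 2000 bp upstream to 500 bp downstream of any of its annotated transcript starts. They are 10 of 19962 protein-coding genes on chromosomes 1 to 22 and X in GENCODE release 44. The assay was CUT&RUN, where a nuclease guided by the Rb antibody cuts bound DNA out of permeabilised cells. OVCAR-3 and Kuramochi are established lines of high-grade serous ovarian cancer, and the labels give their genotype as WT. Cells of each line received INX-315, an inhibitor of CDK2, at 300 nM for 2 days, or the same volume of its solvent DMSO. Each of the 4 groups had 2 Rb libraries, and 1 IgG2a library from DMSO-treated cells of each line served as control. No protein, RNA or cell death was measured in these samples, and 2 lines limit how far the values speak for the disease.

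BCL2, BCL-xL and MCL1 keep the outer mitochondrial membrane intact by holding BAX, BAK and their activators. The BH3-only proteins PUMA, NOXA, BIM and BID take up those guardians or activate BAX and BAK directly, which then form pores. Cytochrome c leaves through the pores and assembles APAF1 into the apoptosome, which activates caspase-9. Rb binds E2F transcription factors when cyclin-dependent kinases have not phosphorylated it, and APAF1, BBC3, PMAIP1 and BCL2L11 are known as E2F1 target genes.

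Sequences from the windows around the summits of some of the genes are shown first, together with short stretches that hold a motif match. All are from GRCh38 (hg38), the build of the files, and read 5′ to 3′ on the strand of the gene. Positions are counted from the start of the canonical transcript, with negative values upstream. Motifs were sought on both strands. They were the 8-base E2F consensus (TTTGGCGC, TTTCCCGC, TTTGCCGC or TTTCGCGC), the short E2F core, which is any of these without its first base and is therefore contained in each, CHR (TTTGAA, with TTCGAA as the other form), CCAAT, the Sp1 box GGGCGG, NRF1 and the p53 half-site. Capitals mark matches other than NRF1, for which there were none. Where exons of any transcript reached into the 200-bp window around the median summit, only the exon-free part, or 30 bases, is given. For APAF1 that part holds no summit of any library, and the CHR and CCAAT matches of its window lie outside it.
APAF1 (chr12:98645114-98645163, plus strand, -176 to -127): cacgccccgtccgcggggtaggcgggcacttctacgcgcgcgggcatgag
PMAIP1 (chr18:59899660-59899859, plus strand, -336 to -137): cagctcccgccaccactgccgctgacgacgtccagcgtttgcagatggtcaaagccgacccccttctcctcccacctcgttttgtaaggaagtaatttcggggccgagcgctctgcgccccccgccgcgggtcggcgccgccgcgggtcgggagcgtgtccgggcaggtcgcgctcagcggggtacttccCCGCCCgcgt
BCL2L11, site near the start (chr2:111120551-111120750, plus strand, -363 to -164): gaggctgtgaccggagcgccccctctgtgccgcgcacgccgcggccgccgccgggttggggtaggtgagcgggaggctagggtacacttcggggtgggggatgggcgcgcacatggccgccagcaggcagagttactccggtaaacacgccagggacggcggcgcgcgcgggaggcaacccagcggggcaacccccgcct
BCL2L11, downstream site (chr2:111122734-111122763, plus strand, 1820 to 1849): gcggcgggctgGCGGGAAggcgcgggcttt
BCL2L1 (chr20:31723838-31723867, minus strand, -999 to -970): ccaggtaggccggcagccaggtaggccggc
BBC3, site at the start (chr19:47231191-47231220, minus strand, -21 to 8): ccgggatccgccGGGCGGcctgagacgcgg
BBC3, downstream site (chr19:47228193-47228222, minus strand, 2977 to 3006): cgccctggggggTTCCCGCtggcctggggg
BAK1 (chr6:33580330-33580359, minus strand, -83 to -54): aaagtGGGCGGGACATGCTCctgggcctgg
BID (chr22:17774118-17774317, minus strand, 152 to 351): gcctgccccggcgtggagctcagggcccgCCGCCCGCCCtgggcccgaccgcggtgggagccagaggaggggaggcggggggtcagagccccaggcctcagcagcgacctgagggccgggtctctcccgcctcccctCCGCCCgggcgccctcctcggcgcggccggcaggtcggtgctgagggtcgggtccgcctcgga
In BAK1 the last base of the Sp1 box is also the first of the p53 half-site, and in BID neighbouring Sp1 boxes overlap.

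No member carried the 8-base E2F consensus in the 200 bp around its highest summit. Among all 13728 genes with a recovered promoter peak, 4.17% held it in that window. The short core was present in 1 of 10 members, BBC3, against 18.8% of those genes, and BCL2L11 held it at a site other than that of its highest summit. Of 16 genes chosen as textbook E2F targets (among them MCM2 to MCM7, CDC6, CCNE2, E2F1 and PCNA), 7 held the 8-base consensus and 8 the short core in the summit window. In the 300 bp at the gene start (250 bp before to 50 bp after), the 8-base consensus occurred in 0 of 10 members, in 12 of the 16 E2F targets and in 4.38% of 19962 genes. The Sp1 box, by contrast, occurred in the summit window of 8 members, with BCL2L1 and BCL2L11 as the exceptions, and in 61.8% of genes with a peak. CCAAT occurred at APAF1 and BAK1 (19.1% of genes), CHR at APAF1 (4.54%) and the p53 half-site at BAK1 (2.94%). NRF1 matches were found at 0 members (4.49% of genes). These are matches of letters in short windows, and a factor can sit at other letters.

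Heights are given as fragments covering the summit, divided by the mean number of fragments per base in that library, so that a height of 20 means 20 times the mean depth. This depth was 0.380 to 0.501 in the DMSO libraries and 0.216 to 0.421 in the INX-315 libraries, and the shallowest was Kuramochi INX-315 replicate 2. The fragments under a summit were few, with medians of 10 to 18 per peak, duplicates were kept by the authors, and Poisson intervals therefore cover counting error only. The lowest peak listed in a Rb library lay between 9.51 and 13.9 times the mean depth, so a promoter without a peak is one below the caller's threshold, not one shown to lack Rb. The IgG2a lists held no peak at any of the 10 promoters, and a promoter peak at 3 protein-coding genes in OVCAR-3 and 1 in Kuramochi.

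More of the 10 genes were occupied after INX-315 in both lines. In OVCAR-3, 4 and 6 genes had a promoter peak in the DMSO libraries and 7 and 10 in the INX-315 libraries. In Kuramochi the DMSO libraries had 5 and 7, and each INX-315 library had 10. The same libraries listed a promoter peak at 30.1% and 37% of all protein-coding genes in OVCAR-3 DMSO, at 56% and 64.9% in OVCAR-3 INX-315, at 26.3% and 39% in Kuramochi DMSO, and at 59.8% and 55.3% in Kuramochi INX-315. The share of occupied promoters thus rose across protein-coding genes in general.

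A peak in both libraries of a group was the requirement for calling a gene bound. Under DMSO, 4 members were bound in OVCAR-3 (26.8% of all genes) and 5 in Kuramochi (24.9% of all genes). After INX-315, 7 were bound in OVCAR-3 (55.5% of all genes) and 10 in Kuramochi (53.2% of all genes). BCL2L1, PMAIP1, BCL2L11 and APAF1 had peaks in all 8 libraries, which held for 18.8% of all genes. In OVCAR-3 these 4 were the constant members (26.7% of all genes were constant), BBC3 was gained, meaning a peak in each INX-315 library and none under DMSO (16.2% of all genes), and the other 5 had a peak in some libraries only. In Kuramochi the constant members were the same 4 and BBC3 (24.8% of all genes), BAX, BAK1 and BID were gained (14% of all genes), and BCL2 and MCL1 each lacked a peak in DMSO replicate 1 only. No member was lost in either line (0.00501% of all genes in OVCAR-3 and 0.015% in Kuramochi). With the Rb lists of a line trimmed by p-value to the length of the shortest, 6 members remained bound in OVCAR-3 INX-315 and 5 in Kuramochi INX-315, and the gained members of Kuramochi fell to 0. The counts above therefore hold for whole lists, which were longer after INX-315.

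**Figure D1:**
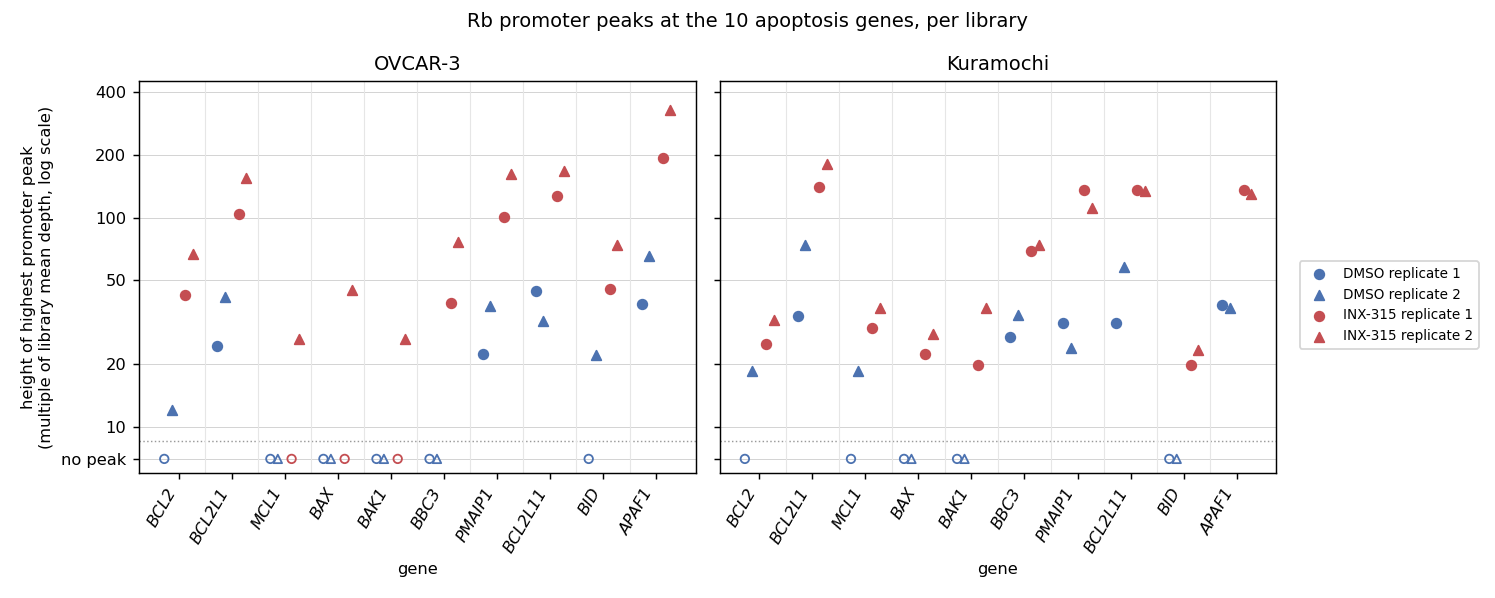
Height of the highest promoter peak of each gene in each Rb library, as a multiple of the library's mean depth on a log axis, with OVCAR-3 on the left and Kuramochi on the right. Blue is DMSO and red INX-315, circles are replicate 1 and triangles replicate 2, and open symbols below the dotted line are libraries without a peak. BCL2L1, PMAIP1, BCL2L11 and APAF1 have a symbol in all 8 libraries, with every red symbol above the blue ones of the same line. The same order held at 99.2% of tested genes in OVCAR-3 and 97.3% in Kuramochi.

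Among the guardians BCL2, BCL2L1 and MCL1, BCL2L1 had the tallest and most regular peak. Its height was 24.3 and 41.9 in OVCAR-3 DMSO, 104 and 155 in OVCAR-3 INX-315, 33.7 and 73.7 in Kuramochi DMSO, and 141 and 181 in Kuramochi INX-315. Both INX-315 libraries lay above both DMSO libraries in each line, as at 99.2% of the 5307 genes with all 4 heights in OVCAR-3 and 97.3% of 4883 in Kuramochi. The means were 33.1 ± 12.5 and 129 ± 35.5 (SD, n = 2 each) in OVCAR-3, a ratio of 3.92, and 53.7 ± 28.3 and 161 ± 28.2 in Kuramochi, a ratio of 2.99. The summit was not at the canonical start but at position -984, 108 bp inside the nearest alternative transcript, in an untranslated exon (site chr20:31722633-31724088). A separate small peak lay at the canonical start, at position 92, in Kuramochi INX-315 replicate 1 only, with a height of 12.3 and 5 fragments. In OVCAR-3 INX-315 replicate 2 the main peak, of 1450 bp, reached across this position. Another small peak lay at position 1979 in an intron, in the promoter of the RNA gene ABALON. It was listed in OVCAR-3 INX-315 replicate 2 only, with a height of 21.4 and 9 fragments.

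BCL2, the founding guardian, had lower and less complete peaks. It lacked a peak in replicate 1 of both DMSO groups and reached 12.0 in OVCAR-3 DMSO replicate 2 and 18.4 in Kuramochi DMSO replicate 2. Its heights after INX-315 were 42.4 and 66.6 in OVCAR-3 and 24.7 and 32.4 in Kuramochi. Those are 13, 28, 10 and 7 fragments, and the 95% Poisson interval of the 7 fragments runs from 2.81 to 14.4. The peaks spanned chr18:63319476-63320682, with summits between positions -353 and -107, upstream of the canonical start. The median summit lay inside an untranslated exon of another transcript.

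MCL1, a guardian with a short-lived protein, had a peak in 4 libraries. None was listed in OVCAR-3 DMSO or in OVCAR-3 INX-315 replicate 1, and the height was 26.2 in OVCAR-3 INX-315 replicate 2. In Kuramochi it was 18.4 in DMSO replicate 2 and 29.6 and 37.1 after INX-315. The OVCAR-3 peak stood on a local background of 4.48 times the mean depth, which left a fold enrichment of 4.16, whereas the background was 1.30 to 1.34 in Kuramochi. Its 4 summits fell within positions -17 to 10 (site chr1:150579245-150579856).

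The pore formers BAX and BAK1 had a peak in the same 3 libraries and in no DMSO library. BAX stood at 45.2 in OVCAR-3 INX-315 replicate 2 (19 fragments) and at 22.2 and 27.8 in Kuramochi INX-315 (9 and 6 fragments). BAK1 stood at 26.2 in OVCAR-3 INX-315 replicate 2 (11 fragments) and at 19.8 and 37.1 in Kuramochi INX-315 (8 fragments each). In OVCAR-3 both calls thus rest on 1 library, and the local background set by the caller was 3.36 times the mean depth at both genes. The BAX summits lay at positions 72 to 375 (chr19:48954663-48955350). Their median was in an intron of the canonical transcript and in an exon of another. The BAK1 summits lay at -62 to 49 (chr6:33580015-33580547). Since no DMSO height exists for either gene, no change in height was tested.

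The BH3-only genes ranged from a peak in all 8 libraries to a peak in 5. PMAIP1, whose product NOXA mainly neutralises MCL1, had heights of 22.2 and 37.9 in OVCAR-3 DMSO and 101 and 162 in OVCAR-3 INX-315. In Kuramochi its heights were 31.5 and 23.7 under DMSO and 136 and 111 after INX-315. The groups did not overlap in either line, where INX-315 was wholly above DMSO at 99.2% (OVCAR-3) and 97.3% (Kuramochi) of tested genes. The INX-315 means were 4.37 times (OVCAR-3) and 4.48 times (Kuramochi) the DMSO means. All 8 summits fell between positions -271 and -209, outside any transcript of the gene (chr18:59899394-59900594), within the 200 bp printed above.

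BCL2L11, whose product BIM binds all guardians and can activate BAX, was occupied at 3 places. The site at position -263 was listed in 7 libraries and the site at 1800, 20 bp inside an alternative start, in 7, and in OVCAR-3 INX-315 replicate 2 and Kuramochi INX-315 replicate 1 a single peak of 3266 and 3159 bp covered both. The third site, at -3232, lay in ACOXL, whose exons run past it, and in the promoter of the antisense RNA ACOXL-AS1. It was listed in 1 DMSO and 4 INX-315 libraries with heights of 23.7 to 64.8, and it cannot be assigned to BCL2L11 alone. The highest peak of the gene measured 44.5 and 31.9 in OVCAR-3 DMSO, 127 and 166 in OVCAR-3 INX-315, 31.5 and 57.9 in Kuramochi DMSO, and 136 and 134 in Kuramochi INX-315. The groups were apart in both lines, as at 99.2% of tested genes in OVCAR-3 and 97.3% in Kuramochi, with ratios of means of 3.85 and 3.02. In OVCAR-3 these DMSO values came from the downstream site and the INX-315 values from the site near the start. At the site near the start alone, OVCAR-3 measured 26.3 and 29.9 under DMSO and 127 and 166 after INX-315. Under DMSO the downstream site was the taller one in all 4 libraries (44.5, 31.9, 31.5 and 57.9, against 26.3, 29.9, 27.0 and 47.4 at the site near the start), although the counting intervals of each pair overlapped. After INX-315 the order was not uniform, since OVCAR-3 INX-315 replicate 1 had 127 near the start and 111 downstream, and Kuramochi INX-315 replicate 2 had 120.4 and 134. The downstream site holds the short E2F core GCGGGAA, at positions 1831 onwards.

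BBC3, whose product PUMA binds every guardian, had no promoter peak in either OVCAR-3 DMSO library. At its start it measured 39.2 and 40.4 in OVCAR-3 INX-315, 26.3 in Kuramochi DMSO replicate 2, and 69.2 and 74.1 in Kuramochi INX-315. At a downstream site in a coding exon, near position 3007, it measured 32.6 and 76.1 in OVCAR-3 INX-315, 27.0 in Kuramochi DMSO replicate 1, and 64.2 and 64.8 in Kuramochi INX-315. Kuramochi DMSO replicate 1 had peaks only downstream of the start. Further downstream, near position 3801, both Kuramochi DMSO libraries had overlapping peaks, with heights of 22.5 and 34.2, and BBC3 was not bound in that group when only the canonical start was used. The downstream peaks also lay in the promoters of the microRNA genes MIR3190 and MIR3191, which are encoded inside BBC3. The short E2F core TTCCCGC of the family lay at the site near position 3007, starting at position 2989, while the site at the start held 8 Sp1 boxes and no E2F core. Local background at both sites was 2.01 to 3.15 times the mean depth in the INX-315 libraries. By its highest peak per library, Kuramochi averaged 30.6 ± 5.14 under DMSO and 71.6 ± 3.50 after INX-315 (SD, n = 2), a ratio of 2.34. The DMSO values in these means came from downstream sites and the INX-315 values from the start, so the ratio and the tested change compare the gene's highest peaks and not 1 position.

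BID, which caspase-8 cleaves to link death receptors to mitochondria, had the lowest mean height in Kuramochi INX-315 (21.5 ± 2.40; SD, n = 2). Its peak was listed at 21.9 in OVCAR-3 DMSO replicate 2, at 45.7 and 73.7 in OVCAR-3 INX-315, and at 19.8 and 23.2 in Kuramochi INX-315, where it rested on 8 and 5 fragments. The DMSO value of OVCAR-3 lay below both INX-315 values, but replicate 1 gave none. Summits ranged from position 39 to 480 (chr22:17773184-17774717), and the median summit lay in an intron.

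APAF1, the scaffold of the apoptosome, had the highest single value of the 10 genes. Its heights were 38.4 and 65.8 in OVCAR-3 DMSO, 192 and 328 in OVCAR-3 INX-315, 38.2 and 36.9 in Kuramochi DMSO, and 136 and 130 in Kuramochi INX-315. OVCAR-3 INX-315 replicate 2 had 138 fragments at the summit (95% Poisson interval 116 to 163), where 98.4% of the genes with a promoter peak in that library were lower. Groups did not overlap in either line, where INX-315 was wholly above DMSO at 99.2% (OVCAR-3) and 97.3% (Kuramochi) of tested genes. The mean after INX-315 was 5.00 times that of DMSO in OVCAR-3 and 3.54 times in Kuramochi. The summits lay at positions -304 to -36 (chr12:98644247-98645897). IKBIP is transcribed from the same stretch in the other direction, and the peak cannot be assigned to 1 of these genes.

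**Figure D2:**
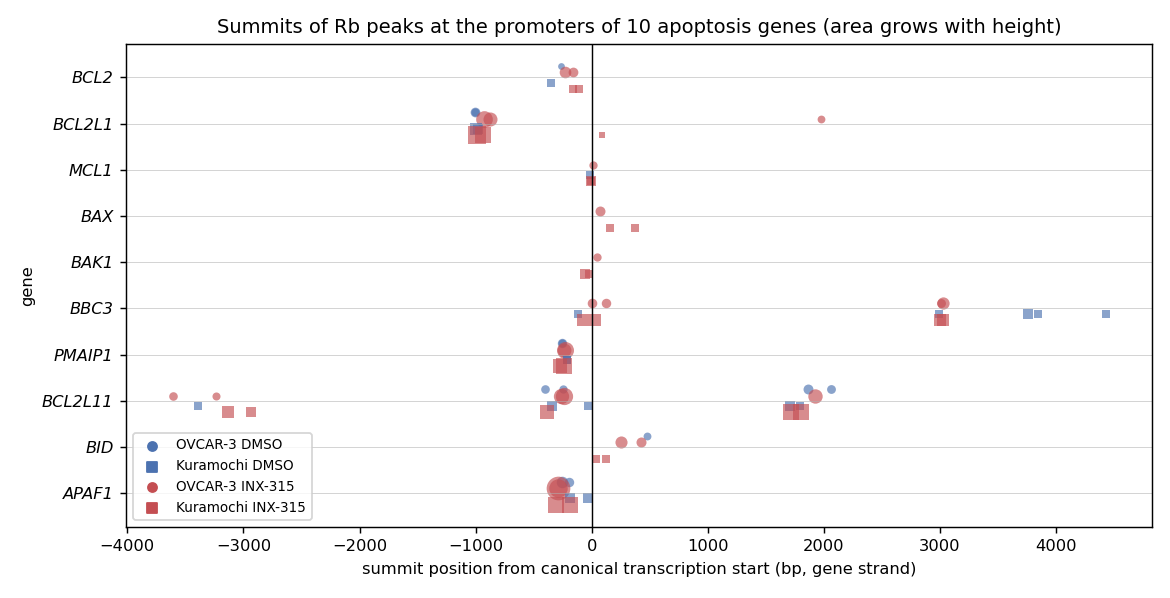
Position of every promoter peak summit of the 10 genes, in bp from the canonical transcription start along the strand of the gene, with 1 row per gene. Circles are OVCAR-3 and squares Kuramochi, blue is DMSO and red INX-315, and the area grows with the height. Summits of MCL1 and BAK1 gather at the start, those of BCL2L1 near -984, and BBC3 and BCL2L11 have several sites.

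Kuramochi INX-315 was the only group in which all 10 genes had a peak in both libraries, and there the levels can be set side by side. The mean heights were 161 ± 28.2 for BCL2L1, 135 ± 1.08 for BCL2L11, 133 ± 4.35 for APAF1 and 123 ± 17.5 for PMAIP1 (SD, n = 2 each). BBC3 followed with 71.6 ± 3.50, and then MCL1, BCL2, BAK1, BAX and BID in this order, from 33.3 ± 5.24 for MCL1 to 21.5 ± 2.40 for BID. Both values of BBC3 lay below those of the first 4 genes and above those of the last 5, whereas neighbours within the first 4 and within the last 5 differed by no more than the larger SD of the pair. Against the genes with a promoter peak in the same library, BCL2L1 stood at 2.85 and 3 times the median in Kuramochi INX-315 replicates 1 and 2. BAK1 stood at 0.4 and 0.615 times. The CpG number in the 200 bp around the main site was 39 at the start of BBC3 (22 at the downstream site that held its highest summit), 34 at APAF1, 31 at BCL2, 28 at PMAIP1, 25 at BCL2L11, 23 at BID, 19 at BCL2L1, 18 at BAX, 12 at MCL1 and 9 at BAK1, against a median of 20 (quartiles 14 and 25) over the genes with a peak. The genes present in all 8 libraries included a guardian, BH3-only genes and APAF1, and neither pore former.

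The question of whether INX-315 changed the height at these promoters could be tested for the 4 genes with a height in all 8 libraries. In a fit with cell line as covariate (limma on log2 heights, Benjamini-Hochberg adjusted over 3680 genes), PMAIP1 rose by 2.15 ± 0.30 on the log2 scale (SE; adjusted p = 4.65e-12) and APAF1 by 2.07 ± 0.29 (adjusted p = 1.23e-11). BCL2L1 rose by 1.84 ± 0.29 (adjusted p = 1.52e-09) and BCL2L11 by 1.81 ± 0.29 (adjusted p = 2.68e-09). Each was higher in 4 of 4 INX-315 libraries than in any DMSO library of its line. Over all genes in the fit, 99.7% were called higher and 0 lower, and the median change was 1.64. Nearly every gene in the fit was thus called, these 4 among them. In this fit limma took the spread of each gene almost wholly from all 3680 genes, and the SEs of the 4 genes were nearly equal (0.29 to 0.30). The p-values therefore do not measure a gene's own spread between its 8 libraries, 2 per group. A shift of a whole library enters all genes together, so p-values this small can overstate what 2 libraries per group show. The same pooling applies to the uncentred fits within each line and between the lines. It also applies to the Kuramochi fit with each library centred on its median.

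Relative to that common shift, no call was made for the 4 genes. With each library centred on its median, the changes were 0.47 ± 0.22 for PMAIP1 (limma, Benjamini-Hochberg adjusted p = 0.142), 0.39 ± 0.18 for APAF1 (adjusted p = 0.148), 0.16 ± 0.18 for BCL2L1 (adjusted p = 0.601) and 0.13 ± 0.18 for BCL2L11 (adjusted p = 0.688). In that fit 4.57% of 3680 genes were higher and 8.99% lower. For the 16 E2F targets, of which 15 were called higher without centring with a median change of 1.13, centring left 0 higher and 11 lower with a median of -0.55. The median of the 4 apoptosis genes was 1.95 without and 0.27 with centring, beside a median of -0.04 over all genes after centring. These medians come from lists chosen by name and carry no test.

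**Figure D3:**
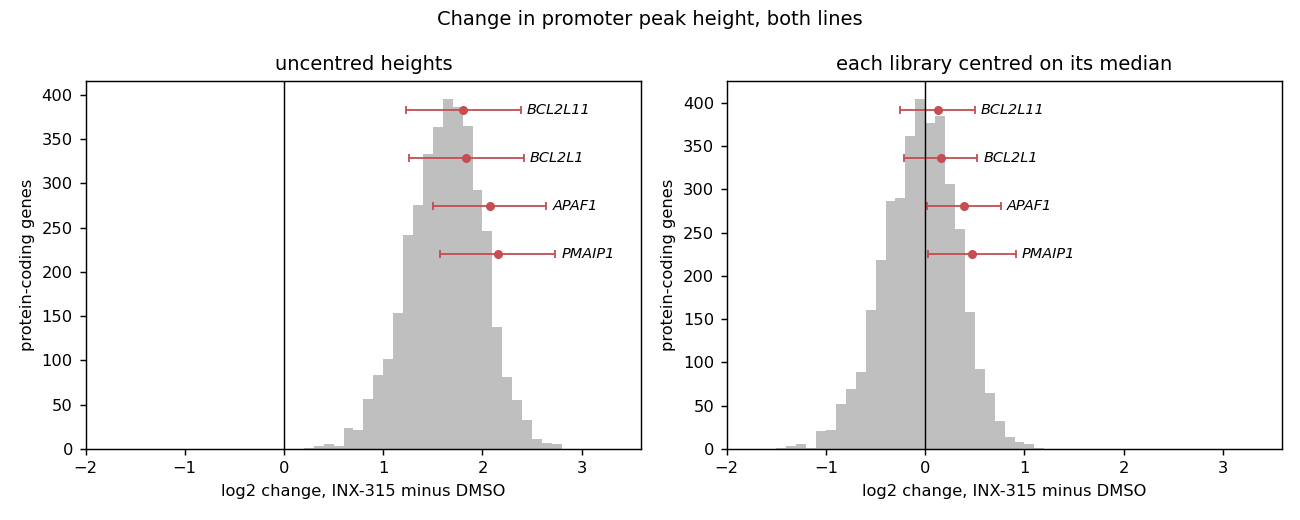
Distribution of the change in promoter peak height (log2, INX-315 minus DMSO, both lines) over 3680 protein-coding genes, as grey bars, without centring on the left and with each library centred on its median on the right. Red points are BCL2L11, BCL2L1, APAF1 and PMAIP1 with 95% confidence intervals. On the left nearly the whole distribution lies above 0 around a median of 1.64, and on the right the points lie between 0.13 and 0.47.

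Within OVCAR-3 the changes were 2.32 ± 0.42 for APAF1 (limma, Benjamini-Hochberg adjusted p = 7.67e-07), 2.14 ± 0.46 for PMAIP1 (adjusted p = 1.32e-05), 1.99 ± 0.45 for BCL2L1 (adjusted p = 3.63e-05) and 1.95 ± 0.45 for BCL2L11 (adjusted p = 4.00e-05). All 4 members in that fit were called higher, as were 96.7% of 5307 genes, around a median of 1.78. Without OVCAR-3 DMSO replicate 1 the call of BCL2L1 was lost (adjusted p = 0.0588 in limma). Within Kuramochi the changes were 2.17 ± 0.44 for PMAIP1 (adjusted p = 1.81e-05), 1.82 ± 0.45 for APAF1 (adjusted p = 0.000215), 1.68 ± 0.46 for BCL2L1 (adjusted p = 0.000622), 1.66 ± 0.45 for BCL2L11 (adjusted p = 0.000628) and 1.24 ± 0.43 for BBC3 (adjusted p = 0.00615). There all 5 members were called higher, as were 91.8% of 4883 genes, around a median of 1.50. BBC3 thus lay below the median of its line, and its centred change was -0.31 ± 0.31 (limma, adjusted p = 0.588). The heights of both INX-315 libraries exceeded those of both DMSO libraries at 99.2% of the 5307 genes in OVCAR-3 and at 97.3% of the 4883 genes in Kuramochi. Without Kuramochi INX-315 replicate 1 or replicate 2, the Kuramochi calls of APAF1, BCL2L1, BCL2L11 and BBC3 were lost and that of PMAIP1 was kept.

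The effect of INX-315 was not shown to differ between the lines at any of the 4 genes. The change in Kuramochi minus that in OVCAR-3 was -0.50 for APAF1 (95% confidence interval -1.70 to 0.70), -0.32 for BCL2L1 (-1.52 to 0.89), -0.29 for BCL2L11 (-1.49 to 0.92) and 0.03 for PMAIP1 (-1.17 to 1.23), each with an adjusted p of 0.999 in limma's interaction fit. The intervals leave room for differences of more than 1 log2 unit. Over the 3680 genes, 0% were called in that fit and 100 had an unadjusted p under 0.05.

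The remaining pathway genes, from 5 lists of 33 genes in all, showed the same direction. In OVCAR-3, 16 of 33 were bound under DMSO and 25 after INX-315, where 26.8% and 55.5% of all genes were, and in Kuramochi 13 and 25, where 24.9% and 53.2% of all genes were. Of the 33, 4 were gained in OVCAR-3 (16.2% of all genes) and 6 in Kuramochi (14% of all genes), while 16 were constant in OVCAR-3 (26.7%) and 13 in Kuramochi (24.8%), and 0 were lost in either line. BOK, an unusual pore-forming relative of BAX, BIRC6, a very large inhibitor of apoptosis protein, and CFLAR, which blocks caspase-8, were gained in both lines, as were 5.56% of all genes. BCL2A1, BCL2L10 and CASP8 had no peak in any Rb library, as had 31.2% of all genes.

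Of the 8 further BCL2 family genes, 3 were bound in OVCAR-3 DMSO and 5 in OVCAR-3 INX-315, and the same numbers held in Kuramochi. As 99.7% of the 3680 genes in the fit for both lines were called higher, around a median of 1.64, the calls of the pathway genes that follow are read against that share. In this list 3 genes were in the fit: BAD, a BH3-only protein, rose by 1.95 (limma, adjusted p = 1.96e-10), BMF, another BH3-only protein, by 1.23 (adjusted p = 4.24e-05), and the guardian BCL2L2 by 1.01 (adjusted p = 0.000382). Within single lines, BCL2L2 was called higher in OVCAR-3 (1.68, limma, adjusted p = 0.000204) and was not called in Kuramochi (0.35, adjusted p = 0.455). Cytochrome c and the caspases formed a list of 6 genes, of which 4 were bound in OVCAR-3 DMSO, 3 in Kuramochi DMSO and 6 after INX-315 in both lines. CASP2, an initiator caspase, rose by 2.17 (limma, adjusted p = 3.06e-12). Of the 6 inhibitors and antagonists, each line had 3 bound under DMSO, and 4 in OVCAR-3 and 5 in Kuramochi after INX-315. HTRA2 rose by 1.71 (adjusted p = 4.00e-09), DIABLO by 1.53 (adjusted p = 3.87e-07) and XIAP, the caspase inhibitor that both of them bind, by 1.47 (adjusted p = 1.53e-06). In the death receptor branch each line had 3 of 10 genes bound under DMSO, and 7 in OVCAR-3 and 6 in Kuramochi after INX-315. RIPK1, a kinase of the TNF receptor complex, rose by 1.99 (adjusted p = 1.03e-10) and its adaptor TRADD by 1.10 (adjusted p = 0.000192). The 3 VDAC channel genes were bound in OVCAR-3 in both groups, and 1 in Kuramochi DMSO and 3 in Kuramochi INX-315. BMF, BCL2L2, DIABLO, XIAP and TRADD changed by less than the median of all genes. With centring, 1 of these pathway genes in the fit for both lines, TRADD, was called, and it was lower by 0.58 (limma, adjusted p = 0.018). In the centred fit of Kuramochi alone, BCL2L2 was called lower by 1.20 (limma, adjusted p = 6.98e-07) and CASP2 higher by 0.86 (adjusted p = 0.00222). That fit called 135 of 4883 genes higher and 258 lower. It took the spread of each gene almost wholly from all 4883 genes. These p-values therefore do not measure the spread of BCL2L2 or CASP2 between their own libraries. HTRA2 had the highest median height of the 33 (123) and BIK, a BH3-only protein, the lowest (14.5, from 2 libraries).

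**Figure D4:**
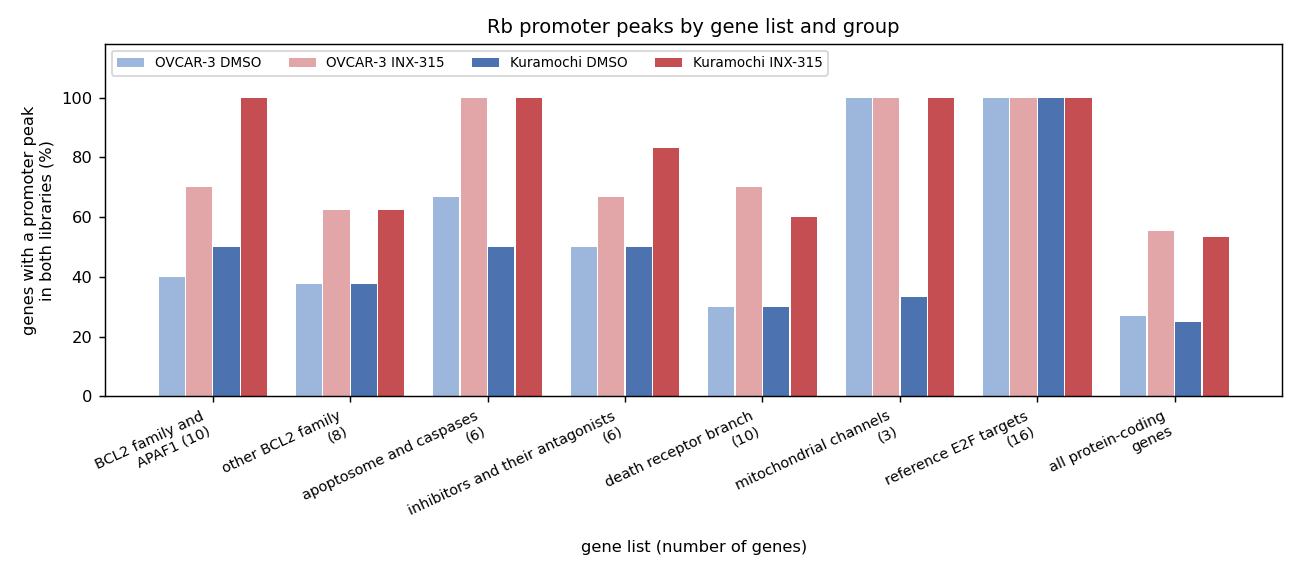
Share of genes with a promoter peak in both libraries of a group (%), for the 10 genes, the 5 other pathway lists, 16 E2F targets and all protein-coding genes. Pale bars are OVCAR-3, dark bars Kuramochi, blue DMSO and red INX-315. All 16 E2F targets are bound in every group, and among all genes the share goes from 26.8% to 55.5% in OVCAR-3 and from 24.9% to 53.2% in Kuramochi.

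The genes whose heights over the 8 libraries were most like those of the members were found by Euclidean distance on the log2 scale among 3680 genes. They were CNOT1 (0.38) and CCSAP (0.42) for BCL2L1, QSER1 (0.43) and FOXO3 (0.51) for BCL2L11, LRBA (0.57) and FGD4 (0.62) for APAF1, and PGAP2 (0.63) and NUP98 (0.65) for PMAIP1. The 8 libraries share the rise after INX-315, which enters every such distance.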

How the data were processed

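The 10 peak lists (8 Rb, 2 IgG2a) were taken as deposited. Per the labels and the study's methods, the authors aligned reads to hg38 with Bowtie2 2.3.4.1, kept duplicates and called peaks in each library with MACS2 2.2.7.1 at a q-value of 0.05 against the IgG2a library of the line. The lists deposited by the authors give a fold enrichment (a ratio), −log10 p-values and q-values, and a score that was not analysed here. Each pair of fold enrichment and p-value was solved for the whole number of fragments at the summit and the local background (relative tolerance 3e-05). The caller sets this background with the IgG2a library as control, so it does not describe the Rb library alone. At least 98.6% of the peaks of a library gave 1 solution. A gene without one in a library is left out of the fits that need that library, as VDAC1 was from the fit for both lines. The lowest background is the mean depth. No read counts were used.

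Promoters used GENCODE release 44, and all 23 chromosomes were checked for length. For a gene, its highest promoter peak was taken. Heights were tested with limma 3.58.1 (R 4.3.3, trend) over all protein-coding genes with a height in each library of the fit, at an adjusted p of 0.05. In data simulated for both lines (3680 genes), 100 genes changed by 2 log2 units and 100 by 1, up or down. Of these, 98% of the changes of 2 and 47% of the changes of 1 were recovered. The simulated data had no shift common to nearly all genes, as the real data had, so these rates need not hold for the fits above. The study's methods describe the replicates of an arm as biological. The members and lists were chosen with earlier results of these data known. Beside the members, the text names pathway genes gained in both lines, called in the fit for both lines, without any peak, or with the highest or lowest median height, and the 2 nearest genes per member. Values of some genes are not reported here. BCL2L11 and BBC3 site details, TRADD after centring, and the single-line values of BCL2L2 and CASP2 were chosen after their values were seen.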

Additional observations from a re-analysis of the deposited data

How the results depend on the processing

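With each library centred on its median, 168 genes were called higher and 331 lower in both lines together, 60 and 145 in OVCAR-3 and 135 and 258 in Kuramochi. All calls of members were lost there, and BBC3 in Kuramochi turned to -0.31. Centring removes by construction whatever is common to a library, and no spike-in scale was used here. Lists trimmed to the same length left 5 members bound in Kuramochi INX-315 and 0 gained in Kuramochi. A q-value of at most 0.001 gave 2 gained in OVCAR-3. Leaving out 1 library at a time gave 1 to 4 members gained in OVCAR-3, with 4 in the absence of INX-315 replicate 1 and 3 in the absence of DMSO replicate 2, and 3 to 5 in Kuramochi, with 5 in the absence of DMSO replicate 2. It gave 2602 to 5261 genes called higher and 0 to 2 lower in OVCAR-3, with 2602 in the absence of DMSO replicate 1, and 602 to 4720 higher and 0 to 1 lower in Kuramochi, with 602 in the absence of INX-315 replicate 2 and 1892 in the absence of INX-315 replicate 1. In these fits the lone library of an arm is assumed to vary like the others. BCL2L1 in OVCAR-3 lost its call without DMSO replicate 1 (1.60, limma adjusted p = 0.0588). The fit for both lines kept its 4 calls of members in all 8 such fits.

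The replicate number as a block called 3672 genes higher in both lines and changed no call of a member. In the fit of the difference between lines it called 2 genes lower, where 0 to 1 were called on leaving out 1 library. The labels do not say whether equal numbers mark a shared batch. With each library centred on its median, replicate differences under DMSO and INX-315 correlated at -0.0371 across genes in OVCAR-3 and at 7.44e-05 in Kuramochi. Centring removes any shift common to a library, so these values cannot settle whether equal numbers belong together. With the deposited fold enrichment in place of heights, 3505 genes were called higher in both lines. The fragments at a summit limit the precision of every height, and the peaks of BAX, BAK1, MCL1, BID and BCL2 rest on 5 to 31 of them.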

Other observations

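Outside the promoters, Rb peaks also lay within the annotated bodies of 3 members. In MCL1, whose longest transcripts run past the canonical end, a peak with its summit near 18.4 kb downstream of the canonical start was listed in 7 of 8 Rb libraries, against 4 of 8 for the MCL1 promoter. Its heights were 19.9 in OVCAR-3 DMSO replicate 2, 39.2 and 59.4 in OVCAR-3 INX-315, 24.7 and 29.0 in Kuramochi DMSO, and 39.5 and 27.8 in Kuramochi INX-315. In OVCAR-3 both INX-315 values lay above the DMSO value, and in Kuramochi the groups overlapped. The peak lay in the promoters of ADAMTSL4-AS1 and of an unnamed gene, so it cannot be assigned to MCL1.

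In BBC3 a peak about 5 kb downstream of the start, in the promoter of MIR3190, was listed at 39.2 and 54.7 in OVCAR-3 INX-315 and at 26.3 in Kuramochi DMSO replicate 2. In both Kuramochi INX-315 libraries the downstream promoter peak, of 2680 and 2762 bp, reached as far as this position. In BCL2L1 a single peak of 6 fragments lay 10120 bp downstream of the start in OVCAR-3 DMSO replicate 2.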
